A study of Homo sapiens with 6 samples.

Results

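Chromosome 19 was examined for di- and trimethylation of lysine 79 of histone H3 (H3K79me2 and H3K79me3) in 293T cells, which derive from human embryonic kidney and express the large T antigen of SV40. The members are all peaks that the deposited lists place on chromosome 19 of the hg19 build, whatever their height, and they number 1942 of the 27470 analysed peaks in 6 lists. The knockdown line stably expressed a short hairpin RNA against KDM2B (shKDM2B), and the line it was set against stably expressed a control hairpin (shCTL). Each line gave 1 H3K79me3 library, 1 H3K79me2 library and 1 input library without antibody. H3K79me3 had 492 chromosome 19 peaks in shKDM2B cells and 394 in shCTL cells. H3K79me2 had 493 in shKDM2B cells and 512 in shCTL cells, and the inputs had 22 in shKDM2B cells and 29 in shCTL cells. With 1 library per group, no difference between the lines has a replicate check or a test, and the knockdown rests on the labels, since the KDM2B level was not analysed here. The labels do not say whether a line is 1 clone or a pool.

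H3K79 methylation is placed by DOT1L, which adds the methyl groups one after another, and it lies mainly over the first part of transcribed genes. KDM2B belongs to the JmjC histone demethylases, and the study's question was whether H3K79 is among its substrates. Chromosome 19 is known as the most gene-dense human chromosome. It also carries large arrays of KRAB zinc finger genes, a family of repressors that arose by repeated duplication and that is commonly packed into heterochromatin rich in another histone mark, H3K9me3.

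The 6 libraries held 11912494 to 17044011 tags after duplicate removal, as the file headers state. Tags in peaks are given here as RPM, tags per 1000000 filtered tags of the library. The caller's estimated fragment length was 126 bp in shKDM2B H3K79me3 and 180 bp in shCTL H3K79me3. For H3K79me2 it was 210 bp in shKDM2B cells and 148 bp in shCTL cells. It sets the scanned window, and its part in peak widths and peak numbers was not tested. The tag size in the headers was 50 bp in both shKDM2B ChIP libraries. In shCTL cells it was 46 bp for H3K79me3 and 47 bp for H3K79me2, and the part of this difference was not tested either. The intervals below are 95% intervals that cover counting error only.

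Chromosome 19 carried the densest H3K79 methylation of the 23 chromosomes compared, 1 to 22 and X. H3K79me3 reached 8.33 peaks per Mb in shKDM2B cells and 6.67 in shCTL cells, and H3K79me2 reached 8.34 in shKDM2B cells and 8.66 in shCTL cells. The median of the other chromosomes was 2.06 H3K79me3 peaks per Mb in shKDM2B cells and 1.58 in shCTL cells, and 1.78 H3K79me2 peaks per Mb in shKDM2B cells and 1.98 in shCTL cells. Chromosome 17 came next in every list, at 5.56 H3K79me3 peaks per Mb in shKDM2B cells and 4.14 in shCTL cells, and at 5.04 and 5.30 H3K79me2 peaks per Mb in shKDM2B and shCTL cells. By covered length the order at the top was the same: H3K79me3 peaks took up 2.15% of chromosome 19 in shKDM2B cells and 1.89% in shCTL cells, and H3K79me2 peaks took up 2.67% in shKDM2B cells and 2.46% in shCTL cells. The peaks themselves stood out far less than their number. H3K79me3 held 7.70 RPM per kb of peak on chromosome 19 in shKDM2B cells, with 6.79 as the median of the other chromosomes, and 6.39 in shCTL cells, with 5.50 as that median. H3K79me2 held 5.53 RPM per kb in shKDM2B cells and 6.80 in shCTL cells, where the other chromosomes had medians of 5.09 in shKDM2B cells and 6.03 in shCTL cells. The chromosome 19 values include a tag pile-up beside the centromere, described below. By its plain share of all analysed peaks, which does not divide by length, chromosome 19 came second after chromosome 1, with 6.96 to 7.96% over the 4 lists.

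**Figure D1:**
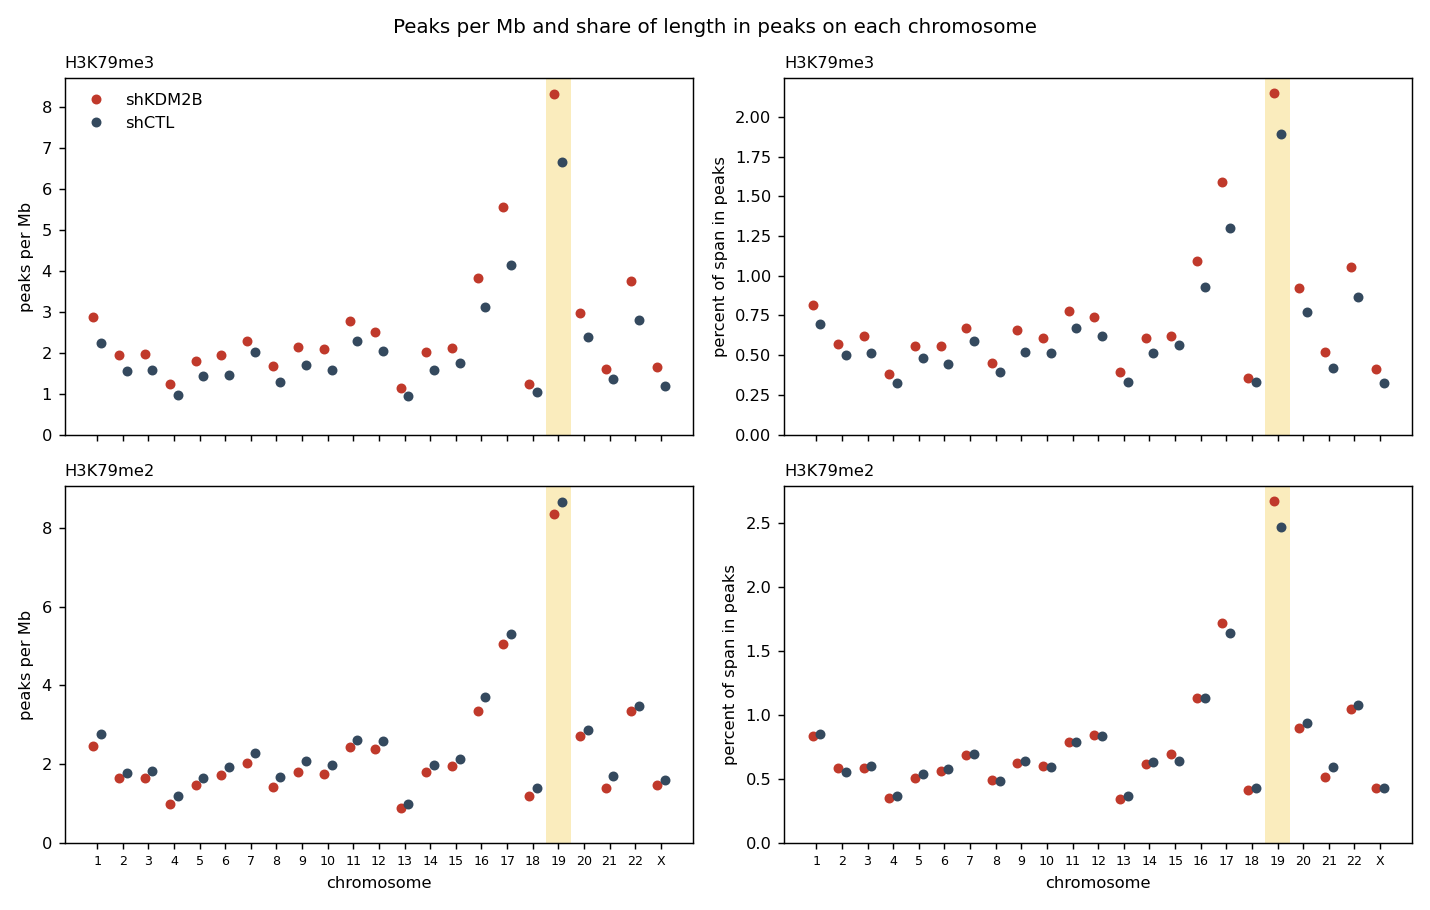
Each point is 1 library on 1 chromosome (x axis), with peaks per Mb in the left panels and the percent of the chromosome's span inside peaks in the right panels. Points of shKDM2B lie left of those of shCTL, and the shaded column is chromosome 19, which is highest in all 4 panels in both lines, at 6.67 to 8.66 peaks per Mb.

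Peaks also lay closer together. When the 4 ChIP lists were merged, chromosome 19 held 601 regions with a median gap of 44.4 kb between neighbours, where the other chromosomes had a median gap of 99.1 kb. The gaps on chromosome 19 ran widely, with quartiles of 18.5 and 95.5 kb. Of its 600 gaps, 79 (13.2%) were no longer than 10 kb, and the share on the other chromosomes was 11.4%.

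Along the chromosome the marks were very uneven. Of 60 bins of 1 Mb, 56 held a ChIP peak by its midpoint, and 17 bins were enough to hold 50% of the 1891 ChIP peaks. The bin with the most peaks was the one from 58 to 59 Mb, inside the distal zinc finger cluster, with 23 H3K79me3 peaks in shKDM2B cells and 18 in shCTL cells. The same bin held 27 H3K79me2 peaks in shKDM2B cells and 28 in shCTL cells, or 96 over the 4 lists. The bin from 1 to 2 Mb near the p-arm end followed with 76 peaks over the 4 lists and held the most tags. Its H3K79me3 peaks held 713 RPM in shKDM2B cells and 501 in shCTL cells, and its H3K79me2 peaks held 581 RPM in shKDM2B cells and 668 in shCTL cells. The bin from 36 to 37 Mb had 65 peaks. Its H3K79me3 peaks held 115 RPM in shKDM2B cells and 54.3 in shCTL cells, below the bin medians of 178 in shKDM2B cells and 119 in shCTL cells. Its H3K79me2 peaks held 157 RPM in shKDM2B cells and 144 in shCTL cells, near the bin medians of 148 in shKDM2B cells and 157 in shCTL cells. The 4 bins without a ChIP peak were those from 25 to 27 Mb, from 31 to 32 Mb and from 43 to 44 Mb. The first of these lie in the longest stretch between regions, 3.12 Mb across the centromere from chr19:24614538-27731741. The last lies in a gap of 1.12 Mb at chr19:42907972-44030315, in an otherwise well-filled arm. No genome sequence was used, so stretches where no read can be placed were not told apart from stretches without a peak.

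**Figure D2:**
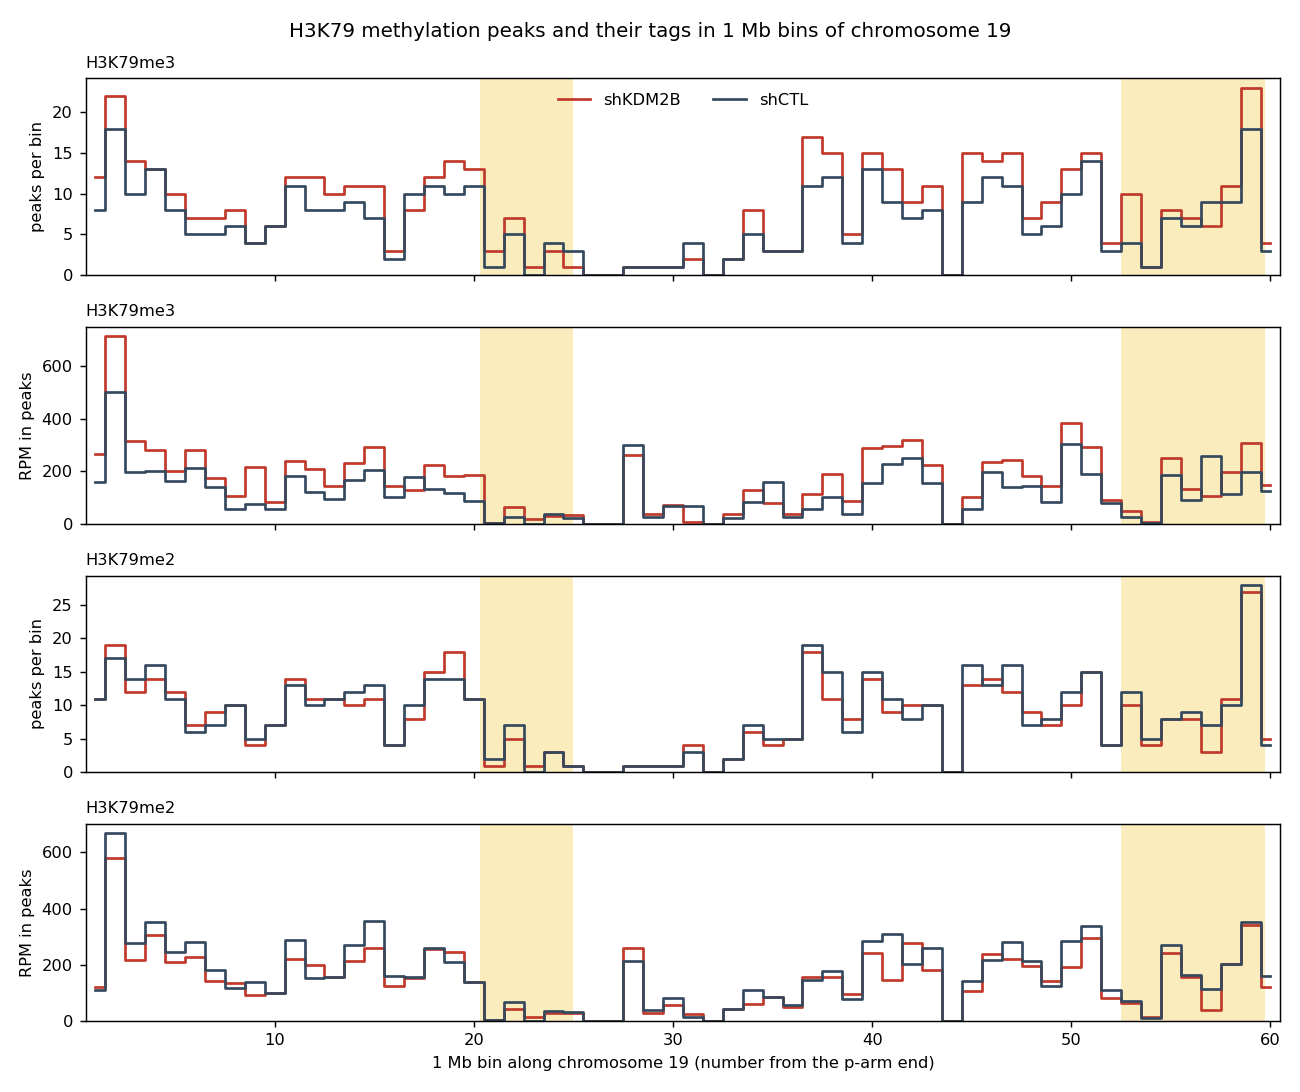
Peaks per 1 Mb bin and RPM inside those peaks (y axes) are drawn by bin number from the p-arm end (x axis) for H3K79me3 and H3K79me2, with shKDM2B in red and shCTL in dark blue. The shaded spans are the zinc finger clusters: the proximal one holds few peaks beside most of the chromosome, and the distal one holds the bin with the most peaks, 23 in shKDM2B cells and 18 in shCTL cells for H3K79me3.

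The bin profiles of the lines were alike in shape. Over the 56 bins with a peak, Spearman's rho of peak numbers in shKDM2B against shCTL cells was 0.933 for H3K79me3 and 0.952 for H3K79me2. For RPM it was 0.868 for H3K79me3 and 0.920 for H3K79me2. Neighbouring bins come from the same libraries, so these values are a description.

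The gene-dense part of the p arm, from 0 to 19800 kb, is called the p arm below. The rest of that arm holds the proximal zinc finger cluster. The gene-dense part held 33.4% of the chromosome's length and 41.8 to 43.8% of the chromosome's peaks over the 4 lists. H3K79me3 had 208 peaks in shKDM2B cells (10.5 per Mb, interval 9.13 to 12.03) and 169 in shCTL cells (8.54 per Mb, interval 7.30 to 9.92). They covered 27.6 kb per Mb in shKDM2B cells and 24.9 in shCTL cells, with 231 RPM per Mb in shKDM2B cells and 158 in shCTL cells. H3K79me2 had 216 peaks in shKDM2B cells and 214 in shCTL cells, which covered 35.1 kb per Mb in shKDM2B cells and 31.7 in shCTL cells. They held 205 RPM per Mb in shKDM2B cells and 232 in shCTL cells. This part thus had the highest H3K79me3 tag density in both lines. Its strongest region with both marks in both lines was chr19:14521969-14530442, 8474 bp long. It held 167 H3K79me3 RPM in shKDM2B cells and 140 in shCTL cells, and 118 H3K79me2 RPM in shKDM2B cells and 170 in shCTL cells.

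The proximal zinc finger cluster, from 19800 to 24500 kb, was sparse beside the rest of the chromosome's arms in both marks and both lines. H3K79me3 had 16 peaks in shKDM2B cells (3.40 per Mb, interval 1.95 to 5.53) and 12 in shCTL cells (2.55 per Mb, interval 1.32 to 4.46). H3K79me2 had 13 peaks in shKDM2B cells (2.77 per Mb, interval 1.47 to 4.73) and 15 in shCTL cells (3.19 per Mb, interval 1.79 to 5.26). The peak density was therefore 0.254 to 0.324 of that of the p arm over the 4 lists, with intervals that do not reach those of the p arm. It still lay above the median of the other chromosomes given above in each list, although each of those medians lies inside the cluster's interval. Tag density lay further behind, at 0.169 and 0.132 of the p arm for H3K79me3 in shKDM2B and shCTL cells, and at 0.153 and 0.150 for H3K79me2 in shKDM2B and shCTL cells. The peaks were also weaker per length. They held 4.28 RPM per kb for H3K79me3 in shKDM2B cells and 3.35 in shCTL cells, where the p arm held 8.38 in shKDM2B cells and 6.34 in shCTL cells. No input peak fell in the cluster.

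The 4 lists merged into 19 regions there, 9 of them with both marks in both lines (47.4%, interval 24.4 to 71.1%). The one of these with the most tags was chr19:24216309-24223344, with 32.5 H3K79me3 RPM in shKDM2B cells and 20.3 in shCTL cells, and 28.8 H3K79me2 RPM in shKDM2B cells and 33.0 in shCTL cells. At the cluster's start, chr19:19837433-19844124 held 35.4 H3K79me3 RPM in shKDM2B cells and 12.7 in shCTL cells, and 31.4 H3K79me2 RPM in shKDM2B cells and 21.4 in shCTL cells. In 9 of the 19 regions at least 1 mark was listed for 1 line alone, and 5 of the 16 shKDM2B H3K79me3 peaks had no shCTL counterpart. The latter share was 31.25%, and its interval includes the background of 27.2% over all chromosomes. The share of regions with a mark in 1 line alone was not counted over all chromosomes. These counts therefore do not set the cluster apart. The region chr19:22817100-22823425 had peaks of both marks in shKDM2B cells alone, at 18.5 H3K79me3 RPM and 11.9 H3K79me2 RPM, and they were the only ChIP peaks of the bin from 22 to 23 Mb. A further H3K79me3 peak of shKDM2B cells alone was chr19:21208693-21213555, with 15.5 RPM. In the other direction, chr19:23865917-23869876 was an H3K79me3 peak of shCTL cells alone, with 15.0 RPM. The region chr19:21203276-21206766 had H3K79me3 in both lines, at 15.8 RPM in shKDM2B cells and 9.39 in shCTL cells, while its H3K79me2 peak of 18.2 RPM was listed in shCTL cells alone. A missing peak says that the caller's threshold was not reached, and it is no value of 0.

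The part from 24500 to 32000 kb, which holds the centromere and the start of the q arm, had the fewest peaks per Mb of its full length. Stretches where no read can be placed were not taken out of that length. H3K79me3 had 5 peaks in shKDM2B cells and 9 in shCTL cells, and H3K79me2 had 7 in shKDM2B cells and 6 in shCTL cells. Most of the tags there lay in 1 pile-up beside the centromere, at chr19:27731777-27740605 in the shCTL input. That input held 467 RPM in it, and the shKDM2B input held 468 RPM at the same start. The ChIP lists had 260 RPM there for H3K79me3 in shKDM2B cells and 301 in shCTL cells, and 259 RPM for H3K79me2 in shKDM2B cells and 215 in shCTL cells. It was thus lower in each ChIP library than in the inputs, and it was the peak with the most RPM per kb on the chromosome in all 4 ChIP lists. Without it, an alternative added after the values were seen, the part held 112 H3K79me3 RPM in shKDM2B cells and 164 in shCTL cells, where it had held 372 in shKDM2B cells and 465 in shCTL cells. For H3K79me2 it held 112 RPM in shKDM2B cells and 134 in shCTL cells without the pile-up, where it had held 370 in shKDM2B cells and 349 in shCTL cells. The strongest region with both marks in both lines outside input peaks was chr19:29697412-29704550, with 70.8 H3K79me3 RPM in shKDM2B cells and 66.8 in shCTL cells, and 57.2 H3K79me2 RPM in shKDM2B cells and 81.0 in shCTL cells.

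The other input peaks of chromosome 19 were small. The pile-up took 94.0% of the RPM in the shKDM2B input's chromosome 19 peaks and 93.7% of that in the shCTL input's. The remaining input peaks had a median of 9 tags in shKDM2B cells and 8 in shCTL cells, and 10 input peaks of each line overlapped one of the other line. Of the input peaks, 13 of 22 in shKDM2B cells and 21 of 29 in shCTL cells overlapped no ChIP peak. These overlaps were not counted for the input peaks of other chromosomes, so the counts do not set chromosome 19 apart.

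The central q arm, from 32000 to 52000 kb, was nearly as dense as the p arm. H3K79me3 had 193 peaks in shKDM2B cells (9.65 per Mb, interval 8.34 to 11.1) and 147 in shCTL cells (7.35 per Mb, interval 6.21 to 8.64), with 173 RPM per Mb in shKDM2B cells and 123 in shCTL cells. H3K79me2 had 181 peaks in shKDM2B cells and 194 in shCTL cells, with 148 RPM per Mb in shKDM2B cells and 173 in shCTL cells. Its strongest region with both marks in both lines was chr19:41769967-41777177, with 120.3 H3K79me3 RPM in shKDM2B cells and 101 in shCTL cells, and 87.0 H3K79me2 RPM in shKDM2B cells and 119 in shCTL cells.

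The stretch taken as the distal zinc finger cluster, from 52000 to 59200 kb, was on average about as dense in peaks as the p arm, unlike the proximal one. H3K79me3 had 70 peaks in shKDM2B cells (9.72 per Mb, interval 7.58 to 12.3) and 57 in shCTL cells (7.92 per Mb, interval 5.996 to 10.3). H3K79me2 had 76 peaks in shKDM2B cells (10.6 per Mb, interval 8.32 to 13.2) and 83 in shCTL cells (11.5 per Mb, interval 9.18 to 14.3). Relative to the p arm the peak density was 0.925 and 0.928 for H3K79me3 in shKDM2B and shCTL cells, and 0.968 and 1.07 for H3K79me2 in shKDM2B and shCTL cells. Its tag density was somewhat lower, at 0.714 and 0.876 of the p arm for H3K79me3 in shKDM2B and shCTL cells, and 0.799 and 0.800 for H3K79me2 in shKDM2B and shCTL cells. The distal cluster was uneven inside: its bin from 53 to 54 Mb held 11 peaks over the 4 lists, and its bin from 58 to 59 Mb held 96. The sparse bin had 1 H3K79me3 peak in each line, with 5.43 RPM in shKDM2B cells and 1.35 in shCTL cells. In the distal cluster as a whole the regions lay closest, with a median gap of 26.5 kb, where the proximal cluster had 151 kb. At its end, chr19:59055526-59060899 was the strongest region with both marks in both lines. It held 87.5 H3K79me3 RPM in shKDM2B cells and 86.3 in shCTL cells, and 61.2 H3K79me2 RPM in shKDM2B cells and 97.1 in shCTL cells. The distal stretch was taken to the q-arm end. Its bin from 59 Mb held 146 of its 1189 H3K79me3 RPM in shKDM2B cells and 126 of 996 in shCTL cells. Both clusters are stretches set by coordinates, and the genes inside them were not identified, so their contrast is one between stretches.

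**Figure D3:**
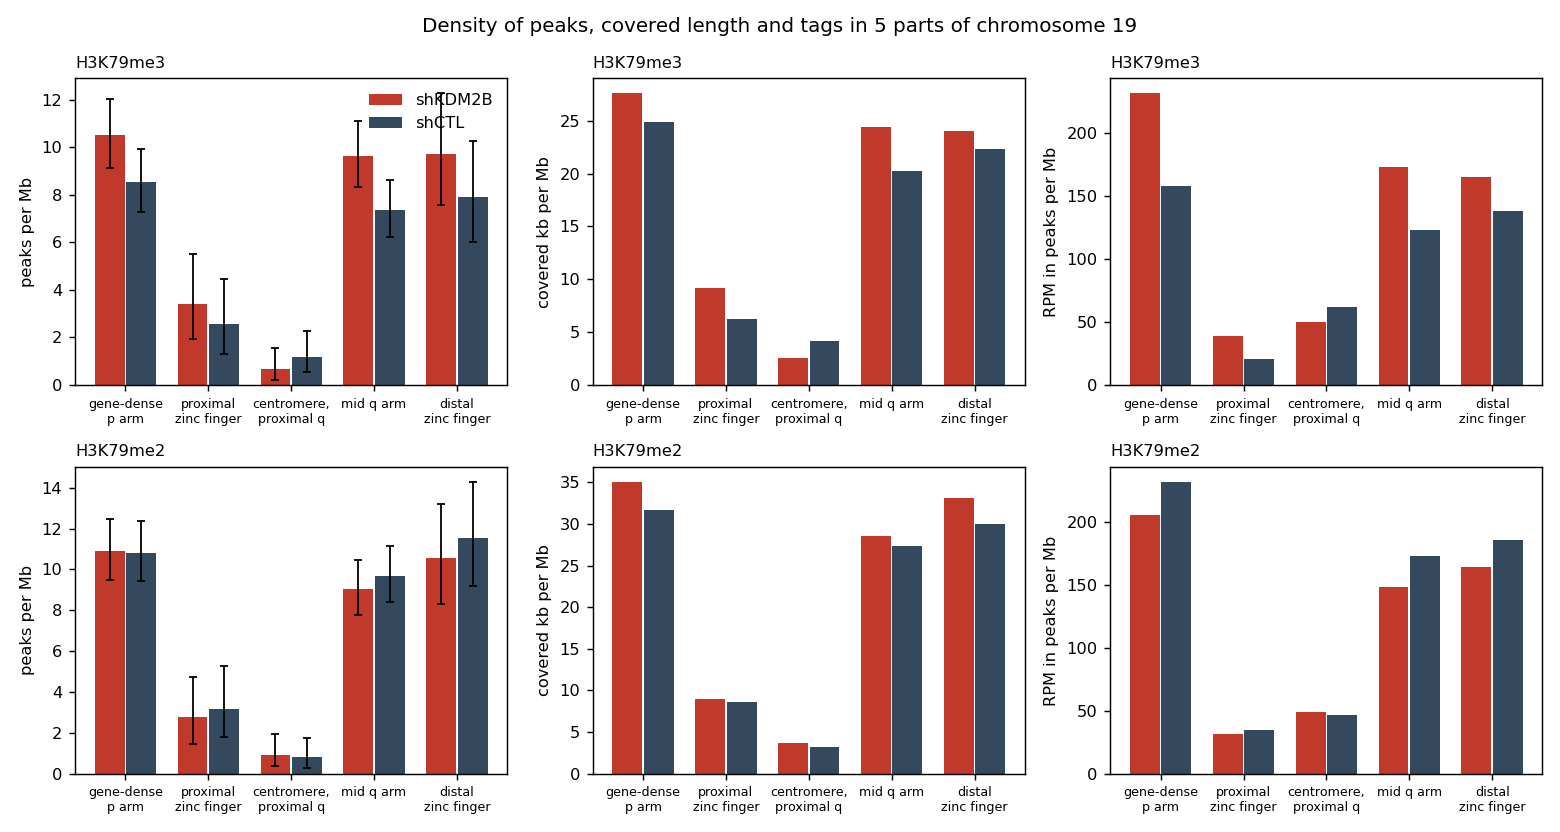
Bars give peaks, covered kb and RPM in peaks, each per Mb (y axes), for 5 parts of chromosome 19 from the p-arm end to the q-arm end (x axis), with shKDM2B left of shCTL and 95% Poisson intervals on the peak density. The proximal zinc finger cluster stands at 2.55 to 3.40 peaks per Mb and the distal one at 7.92 to 11.5.

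Between the lines, H3K79me3 on chromosome 19 was higher in shKDM2B cells by every measure of amount. Its peak number was 1.25 times that of shCTL cells (interval 1.09 to 1.43), its covered length 1.13 times at 1270.4 kb in shKDM2B cells and 1119 kb in shCTL cells, and its RPM 1.37 times at 9787 in shKDM2B cells and 7148 in shCTL cells. Per kb of peak it held 7.70 RPM in shKDM2B cells and 6.39 in shCTL cells. The H3K79me2 measures did not all point one way. Its peak number was 0.963 times that of shCTL cells (interval 0.849 to 1.09), its covered length was 1.08 times, at 1575 kb in shKDM2B cells and 1456 kb in shCTL cells, and its RPM 0.881 times, at 8716 in shKDM2B cells and 9897 in shCTL cells. Per kb of peak it held 5.53 RPM in shKDM2B cells and 6.80 in shCTL cells, a ratio of 0.814, where that of H3K79me3 was 1.21. The RPM totals of both marks include the centromeric pile-up. Without it, H3K79me3 held 9527 RPM in shKDM2B cells and 6846 in shCTL cells. H3K79me2 then held 8457 RPM in shKDM2B cells and 9683 in shCTL cells. With the same number of peaks taken from both lists of a mark, highest scores first, the peak-number ratio was 1.04 for H3K79me3 and 1.02 for H3K79me2. That rule sets the peak-number ratio over all chromosomes to 1 by construction, and the H3K79me3 RPM ratio on chromosome 19 was 1.29 under it. In shKDM2B cells chromosome 19 had 0.998 H3K79me3 peaks per H3K79me2 peak, and in shCTL cells it had 0.770.

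The H3K79me3 peak-number ratio was 1.25 on chromosome 19 and 1.26 over all chromosomes of these libraries. Its RPM ratio was lower on chromosome 19, at 1.37, than over all chromosomes, at 1.47. For H3K79me2 the whole-genome ratios were 0.907 in peak number and 0.825 in RPM. The H3K79me2 covered length was 1.08 times that of shCTL cells on chromosome 19 and 1.00 times over all chromosomes, and the ratio per kb of peak was 0.814 on chromosome 19 and 0.825 over all.

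The higher H3K79me3 level was spread over the chromosome. RPM in H3K79me3 peaks was higher in shKDM2B cells in 50 of 56 bins, and the number of peaks was higher in 41 bins, lower in 5 and equal in 10. H3K79me2 RPM was higher in shKDM2B cells in 14 of 56 bins, although its covered length was larger in 38. With bins shifted by 0.5 Mb, the share of bins with higher RPM went from 89.3 to 79.6% for H3K79me3. For H3K79me2 it went from 25 to 34.5%. Bins of the other chromosomes were not counted, so no such share stands beside these. By parts of the chromosome, the H3K79me3 RPM ratio of shKDM2B to shCTL cells was 1.47 in the p arm, 1.87 in the proximal zinc finger cluster, 1.405 in the central q arm and 1.19 in the distal cluster. Around the centromere it was 0.800, with the pile-up included. The H3K79me2 RPM ratio was 0.885, 0.898, 0.855 and 0.883 in the same 4 parts. It was 1.06 around the centromere with the pile-up included, and without the pile-up H3K79me2 RPM there was lower in shKDM2B cells, as given above.

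A few bins stood apart, and in the first 3 given here a single peak listed for 1 line held about as many tags as the difference. In the bin from 56 to 57 Mb, H3K79me3 had 104 RPM in 6 peaks in shKDM2B cells and 259 RPM in 9 peaks in shCTL cells, and H3K79me2 had 39.2 RPM in shKDM2B cells and 112 in shCTL cells. Of the shCTL H3K79me3 tags there, 158 RPM lay in 1 peak at chr19:56166257-56173771 that overlapped no shKDM2B peak, although a shKDM2B H3K79me3 peak lay within 10 kb. In the bin from 8 to 9 Mb, H3K79me3 had 217 RPM in shKDM2B cells and 74.2 in shCTL cells, with 4 peaks in each. There 133 RPM lay in 1 peak of shKDM2B cells, chr19:8509684-8514591. It had 2179 tags and overlapped no other ChIP peak, and no shCTL H3K79me3 peak lay within 10 kb. Its fold enrichment over the local background was 3.41, below the median of 6.98 for the chromosome's peaks in that list. Its score of 1501 was above their median of 277 and lay in the highest score quartile. The shCTL peak at chr19:56166257-56173771 likewise had a low fold, 3.02, where its list had a median of 6.25. In the bin from 40 to 41 Mb, H3K79me2 had 145.6 RPM in shKDM2B cells and 310.6 in shCTL cells. There 1 peak of 2567 tags at chr19:40329127-40337302 was listed in shCTL cells and overlapped no shKDM2B H3K79me2 peak. The bin from 34 to 35 Mb had 77.2 H3K79me3 RPM in shKDM2B cells and 158 in shCTL cells. The bin from 30 to 31 Mb had 4.82 H3K79me3 RPM in shKDM2B cells and 68.8 in shCTL cells.

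Peaks listed for 1 line alone were counted next. Of the 492 H3K79me3 peaks of shKDM2B cells, 121 (24.6%, interval 20.8 to 28.6%) overlapped no shCTL peak, against a background of 27.2% over all chromosomes. Of the 394 of shCTL cells, 26 (6.599%, interval 4.36 to 9.52%) overlapped no shKDM2B peak, against a background of 8.70%. For H3K79me2 the counts were 50 of 493 in shKDM2B cells (10.1%, interval 7.62 to 13.2%, background 12.2%) and 58 of 512 in shCTL cells (11.3%, interval 8.72 to 14.4%, background 19%). Counted this way, each share lay below its background, and the shCTL H3K79me2 share was the one whose interval did not reach it. The shares moved with the settings. With the same number of peaks from both lists the H3K79me3 shares were 14.4% in shKDM2B cells and 10.9% in shCTL cells. With a reciprocal overlap of 50% the shCTL H3K79me3 share was 12.2%, and the H3K79me2 shares were 18.9% in shKDM2B cells and 21.9% in shCTL cells. The backgrounds under those settings were not computed.

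The 1-line H3K79me3 peaks of the lines differed in width and tags, and in both lines most of them had low scores. Those of shKDM2B cells were short and held few tags, at medians of 896 bp and 36 tags, and 86 of 121 (71.1%) lay on an H3K79me2 peak of shCTL cells. They came mostly from the bottom of the score range: 83 of the 123 peaks in the lowest score quartile had no shCTL counterpart, and in the highest quartile 1 of 123 had none. Those of shCTL cells were long, with a median width of 4821 bp and 275 tags at a median score of 72.6, and 2 of 26 (7.69%) lay on an H3K79me2 peak of shKDM2B cells. Of these 26, 16 lay in the lowest score quartile of their list and 1 in the highest. The H3K79me3 peaks of shCTL cells that had a shKDM2B counterpart were shorter and scored higher, at medians of 2193 bp and 211. Input peaks overlapped 4 of the 26 1-line peaks of shCTL cells and 0 of the 121 of shKDM2B cells. The share on the other line's H3K79me2 was not computed over all H3K79me3 peaks or for other chromosomes. Among the highest-scoring 1-line peaks were H3K79me3 at chr19:2475941-2477683 in shKDM2B cells, with 9.21 RPM, and at chr19:47613012-47615796 in shCTL cells, with 14.0 RPM. For H3K79me2 they were chr19:1400141-1401815 in shKDM2B cells, with 5.78 RPM, and chr19:21203276-21206766 in shCTL cells, named above.

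Where both lines had a peak, the tags in it could be compared. Of the 367 shared H3K79me3 regions, 356 (97.0%, interval 94.7 to 98.5%) held more RPM in shKDM2B cells, where 92.9% did over all chromosomes. They had a median log2 ratio of 0.76, or 1.69-fold, and quartiles of 0.43 and 1.10. Of these regions, 228 (62.1%, interval 56.9 to 67.1%) were at least 1.5-fold higher, against a background of 51.7%, and 1 was at least 1.5-fold lower, against a background of 1.99%. The median was the highest of the 23 chromosomes; the others ran between 0.46 and 0.74, with chromosome 3 next. The share at least 1.5-fold higher ranked second, after 65.0% on chromosome 3. Counted per kb of peak, the median log2 ratio was 0.61 on chromosome 19 and 0.46 to 0.61 on the others. The lead over chromosome 3 is therefore slight. By total RPM in peaks, shared or not, the H3K79me3 ratio of chromosome 19 was 1.37, below the 1.47 over all chromosomes. H3K79me2 regions were centred near equality. Of 443, 238 (53.7%, interval 49.0 to 58.4%) held more RPM in shKDM2B cells, where 50.02% did over all chromosomes. Their median log2 ratio was 0.03, and it turned to -0.13 per kb. Of these, 80 (18.1%) were at least 1.5-fold higher against a background of 17.2%, and 16 (3.61%) were at least 1.5-fold lower against a background of 3.46%.

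The shared regions of H3K79me3 were higher in shKDM2B cells in each part of the chromosome. The median log2 ratio was 0.78 over 157 regions of the p arm, 0.68 over 11 of the proximal zinc finger cluster, 0.78 over 141 of the central q arm and 0.76 over 53 of the distal cluster. The 5 regions around the centromere had a median of 0.28. The sparse proximal cluster thus had much the same ratio as the dense parts. H3K79me2 medians were 0.03, -0.19, 0.02 and 0.04 in the same 4 parts and 0.26 around the centromere.

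**Figure D4:**
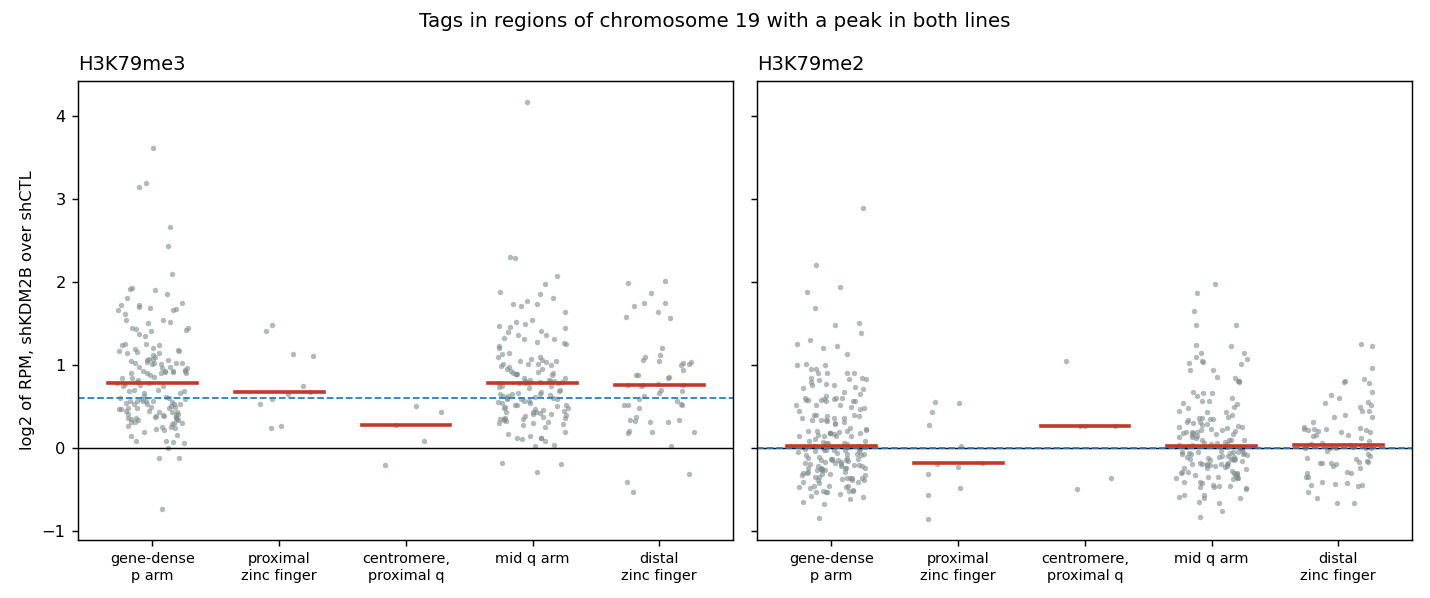
Each point is a region of chromosome 19 with a peak of the mark in both lines, placed by part of the chromosome (x axis) at the log2 ratio of its RPM in shKDM2B over shCTL cells (y axis). Red bars are medians of each part and the dashed line is the median of all chromosomes, 0.60 for H3K79me3 and 0.00 for H3K79me2; the H3K79me3 medians lie between 0.68 and 0.78 in all parts but the one around the centromere.

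The largest H3K79me3 ratio among regions with 1 peak in each line and at least 50 tags was at chr19:45349520-45354058. It held 330 tags (20.1 RPM) over 4539 bp in shKDM2B cells and 19 tags (1.11 RPM) over 692 bp in shCTL cells, a log2 ratio of 4.17 with a counting SE of 0.34. Per kb of peak the log2 ratio was 1.46, so most of the difference is in the length that was called. The H3K79me2 peaks over the same place, chr19:45349503-45354709, had 24.0 RPM in shKDM2B cells and 6.12 in shCTL cells, a log2 ratio of 1.97. The next regions were chr19:18529989-18534638, with 21.6 H3K79me3 RPM in shKDM2B cells and 1.76 in shCTL cells, and chr19:1563781-1568047, with 21.0 in shKDM2B cells and 2.29 in shCTL cells. At the other end, the lowest H3K79me3 log2 ratios were small, with -0.41 at chr19:55790377-55791355 and -0.31 at chr19:58281012-58286889, both in the distal zinc finger cluster. Their signs turned per kb, to 0.43 and 0.64. The highest H3K79me2 log2 ratio was 2.89 at chr19:2720224-2721757, on 67 tags in shKDM2B cells and 11 in shCTL cells. The lowest was -0.86 at chr19:19887670-19889151 in the proximal cluster, on 29 tags in shKDM2B cells and 64 in shCTL cells.

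H3K79me3 peaks lay on H3K79me2 peaks more often on chromosome 19 than elsewhere. Of the H3K79me3 peaks of shKDM2B cells, 87.8% (interval 84.6 to 90.6%) lay on an H3K79me2 peak of the same line, and on the other chromosomes 74.0% did (interval 72.9 to 75.05%). In shCTL cells the shares were 90.4% (interval 87.0 to 93.1%) on chromosome 19 and 80.9% (interval 79.8 to 82.0%) on the others. Read the other way, 85.0% of H3K79me2 peaks lay on H3K79me3 in shKDM2B cells on chromosome 19 and 82.9% elsewhere, and in shCTL cells 69.3% did on chromosome 19 and 66.5% elsewhere, with overlapping intervals. More peaks per Mb raise the overlap of any 2 lists, and the part of peak density in these shares was not tested. The share of H3K79me3 peaks on H3K79me2 was 94.3% in the distal zinc finger cluster of shKDM2B cells (interval 86.0 to 98.4%) and 75% in the proximal one (12 of 16 peaks, interval 47.6 to 92.7%).

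Over the 601 merged regions of chromosome 19, 325 (54.1%, interval 49.998 to 58.1%) had both marks in both lines, and on the other chromosomes 43.3% did (interval 42.3 to 44.4%). Regions with H3K79me3 in both lines and no H3K79me2 were scarcer, with 11 (1.83%, interval 0.917 to 3.25%) on chromosome 19 and 6.39% on the others. The second most common combination was H3K79me2 in both lines with H3K79me3 in shKDM2B cells alone, in 73 regions (12.1%, interval 9.64 to 15.0%), and it made up 10.7% elsewhere. The mirror combination, with H3K79me3 in shCTL cells alone, was found in 2 regions (0.333%), and it made up 0.578% elsewhere. Where H3K79me3 was present in both lines, H3K79me2 was in shKDM2B cells alone in 7 regions (1.16%), and that combination made up 1.10% elsewhere. It was in shCTL cells alone in 21 regions (3.49%), and that one made up 5.83% elsewhere.

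**Figure D5:**
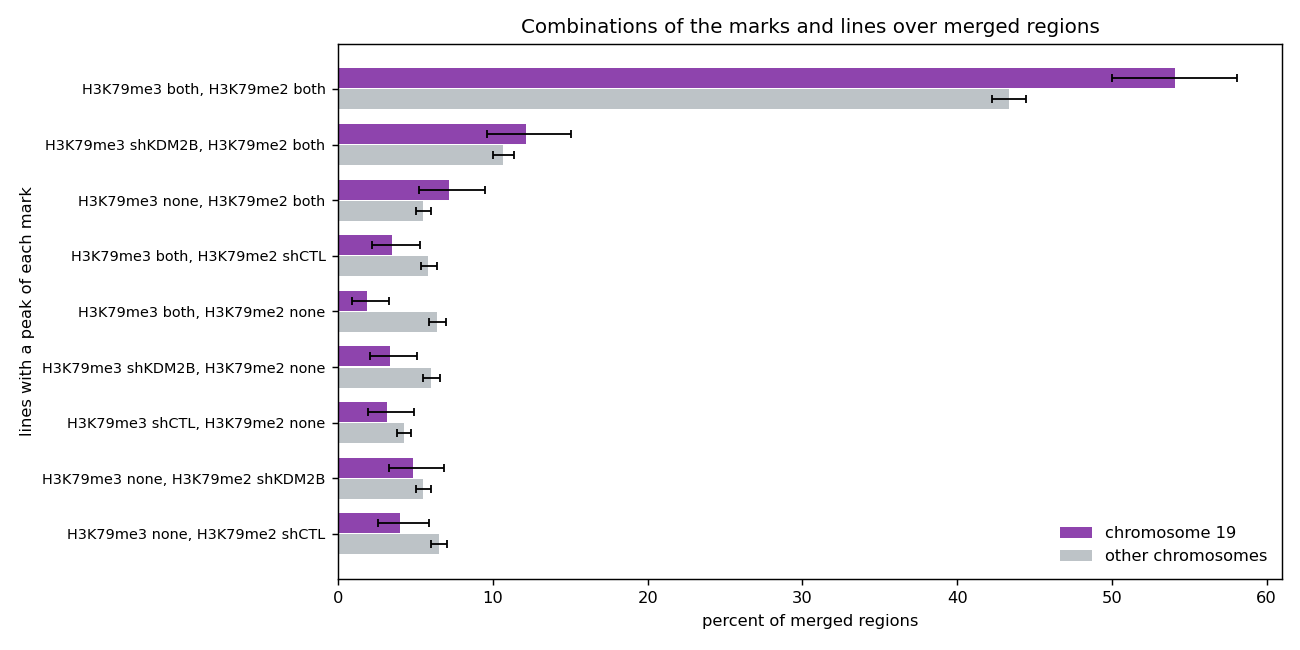
Bars give the percent of merged regions (x axis) in each combination of lines that had an H3K79me3 and an H3K79me2 peak (y axis), for chromosome 19 above the other chromosomes, with exact 95% binomial intervals; the 9 combinations drawn leave out the rarer ones. Regions with both marks in both lines make up 54.1% on chromosome 19 and 43.3% elsewhere.

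Where peaks coincided, their summits mostly did as well. Between the lines the H3K79me3 summits on chromosome 19 lay a median of 161 bp apart over 362 pairs, and 86.7% (interval 82.8 to 90.1%) lay within 500 bp. On the other chromosomes 82.7% did (interval 81.6 to 83.8%), which overlaps. The H3K79me2 summits lay a median of 148 bp apart over 432 pairs, with 89.6% (interval 86.3 to 92.3%) within 500 bp, and 81.2% (interval 80.1 to 82.3%) did so on the other chromosomes. Between the marks, H3K79me3 and H3K79me2 summits lay a median of 165 bp apart in shKDM2B cells and 158.5 bp apart in shCTL cells. The median peak on chromosome 19 was also shorter than over all chromosomes. For H3K79me3 it was 2025 bp in shKDM2B cells and 2271.5 bp in shCTL cells, with 2333.5 bp in shKDM2B cells and 2542 bp in shCTL cells over all chromosomes. For H3K79me2 it was 2763 bp in shKDM2B cells and 2282.5 bp in shCTL cells, with 2985 bp in shKDM2B cells and 2582 bp in shCTL cells over all chromosomes.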

How the data were processed

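Reads were aligned to hg19 (GRCh37) with Bowtie2 (no version given), per the submitters' processing notes. Peaks were called in each library alone with MACS 1.4.2 and no control file, at a p cutoff of 1e-05 and at most 1 tag per position, per the file headers. All values per peak are the authors' own. The tag count of a peak in the deposited lists is a raw whole number. The fold that the authors deposited is a ratio to the peak's local background. Their significance column was taken as a deposited score, since its lowest value is 50 at that cutoff, 10 times a negative log10 p. RPM divides a peak's tags by the library's filtered tags.

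Of 28345 listed peaks, 875 lay on sequences other than chromosomes 1 to 22, X and Y and were not analysed. Peaks were placed by midpoint in 1 Mb bins and in 5 parts of the chromosome, and counted as overlapping from 1 bp. Peaks of both lines of a mark were merged, and regions with a peak in each gave a ratio; a region at 1.5-fold or more was counted as higher or lower. Densities divide by the last listed base of a chromosome or by the full length of a part, with no stretch removed. Intervals are exact Poisson or Clopper-Pearson. Overlap counting was tested on simulated data with 200 planted 1-line peaks among 6827 for H3K79me2 and among 5597 for H3K79me3, and found all 200 each time with 0 false ones. The members, parts and measures were chosen with earlier results of these data known. Named regions followed a rule: the most tags per part with both marks in both lines, the 3 highest and lowest ratios per mark, the 3 highest-scoring 1-line peaks, the fullest and emptiest bins, and any peak of the proximal cluster. The bins from 8, 30, 34, 40 and 56 Mb were chosen after their values were seen. An hg19 annotation and genome were not used here, so no peak was given a gene or sequence and the gene family counts were not made. Python 3.11.15, pandas 2.3.3, numpy 2.4.6, scipy 1.17.1 and matplotlib 3.10.9 were used.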

Additional observations from a re-analysis of the deposited data

Results flagged for a closer look

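The H3K79me3 peak number of chromosome 19 was 24.9% higher in shKDM2B cells, and the H3K79me2 peak number differed by -3.71%. The signs are opposite, but the interval of the H3K79me2 ratio, 0.849 to 1.09, includes 1. With the same number of peaks from both lines both ratios were above 1, at 1.04 for H3K79me3 and 1.02 for H3K79me2. The difference between the marks was not tested, since each rests on 1 library per line.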

How the results depend on the processing

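With 1 library per group, no replicate could be left out. No paired analysis was possible because each line has 1 library per mark and the labels give no replicate numbers. Of 126 alternative values for 34 results, 98 stayed within the counting interval and 28 were counted as moved. A value counted as moved if it left the interval, if a ratio crossed 1 or if a rank changed. The 4 values at the centromeric pile-up, given above, have no interval and were counted as moved. With the same number of peaks from both lines, the peak-number ratio was 1.04 for H3K79me3 and 1.02 for H3K79me2, which crosses 1. That setting also gave 14.4% of shKDM2B and 10.9% of shCTL H3K79me3 peaks in 1 line, and in shKDM2B cells 92.2% of H3K79me3 peaks on H3K79me2 and 75.9% of H3K79me2 peaks on H3K79me3. A reciprocal overlap of 50% gave 1-line shares of 29.7% and 12.2% for H3K79me3 in shKDM2B and shCTL cells, and 18.9% and 21.9% for H3K79me2. It gave 67.7% and 76.6% of H3K79me3 peaks on H3K79me2 in shKDM2B and shCTL cells, and 67.5% and 59.0% of H3K79me2 peaks on H3K79me3. With the higher-scoring 50% of each list, 15.8% of shCTL H3K79me2 peaks were in 1 line, 82.9% of shKDM2B H3K79me3 peaks lay on H3K79me2, and 99.5% of H3K79me3 but 46.6% of H3K79me2 shared regions were higher in shKDM2B cells. Per kb, 33.9% of H3K79me2 shared regions were higher in shKDM2B cells. With the proximal cluster's limits moved outward by 0.5 Mb, it held 5.33% of shCTL H3K79me3 peaks. By share of all analysed peaks, chromosome 19 ranked 2 in each ChIP list. The cause of these moves was not tested. Covered-length and RPM ratios were judged against the wider interval of the peak-number ratio. They ran from 1.02 to 1.20 and from 1.29 to 1.47 for H3K79me3, and from 1.00 to 1.12 and from 0.789 to 0.904 for H3K79me2, over the settings run.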
